A study of Homo sapiens with 4 samples.

Results

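The human reference assembly keeps some pieces outside its chromosomes, and 1754 of the 175720 CHAF1A peaks in the 2 deposited peak lists lay on them. A peak was taken here when its sequence name was anything other than chromosomes 1 to 22, X and Y. This gave 868 of 77181 peaks (1.12%, exact 95% interval 1.05 to 1.20%) in the control siRNA list and 886 of 98539 peaks (0.899%, 0.841 to 0.960%) in the CHAF1A siRNA list. All of these peaks were on unplaced sequences, whose chromosome is unknown (names starting chrUn), or on unlocalized sequences, whose chromosome is known but whose position on it is not (names ending in random). Neither list held a peak on an alternate haplotype sequence or on the mitochondrial sequence.

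The study profiled CHAF1A by CUT&Tag in RBE, a human intrahepatic cholangiocarcinoma cell line. In CUT&Tag an antibody guides a transposase to the protein of interest, and the DNA cut around it is sequenced. Cells received a control siRNA (si-Ctrl, 2 samples) or an siRNA against CHAF1A (si-CHAF1A, 2 samples) and were collected after 48 h. One peak list per group was analysed, so each value below is 1 value per condition with no replicate spread and no test between conditions. The intervals given cover counting error only.

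CHAF1A is the large subunit of chromatin assembly factor 1, the histone chaperone that deposits new histones H3 and H4 behind the replication fork. Unplaced and unlocalized sequences are assembly pieces that resisted placement because they are rich in repeats such as satellites, segmental duplications and ribosomal DNA (rDNA). A read from a repeat fits many copies of it, so the signal drawn on 1 such piece can come from copies elsewhere in the genome, and the sources used here do not say how reads with several matches were handled.

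The peaks were spread over 99 sequences, 63 of them unplaced and 36 unlocalized. Peaks were found on 93 sequences in the control list and on 94 in the siRNA list, with 88 in both. The 440 control and 428 siRNA peaks on unplaced sequences were about as many as the 428 control and 458 siRNA peaks on unlocalized ones. The siRNA list held 1.02 times as many peaks as the control list on these sequences and 1.28 times as many on the chromosomes. At a −log10 q of at least 10, these sequences held 636 control and 628 siRNA peaks, and the chromosomes 37115 and 38805. Among unlocalized sequences, those assigned to chromosome 14 held 131 control and 134 siRNA peaks on 7 sequences. Chromosome 22 followed with 109 and 106 on 8 sequences, and chromosome 17 with 68 and 66 on 3. Chromosome 1, also with 7 sequences, held 44 and 54. Sequences of chromosomes 9, 16, 4, 3, 15, 11, 5 and 2 held at most 22 control and 30 siRNA peaks each.

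A few sequences carried a large part of the peaks. The 8 with the most peaks held 367 control and 343 siRNA peaks together. chr14_GL000225v1_random came first, with 78 control and 74 siRNA peaks. chr22_KI270736v1_random had 45 and 46, chrUn_KI270442v1 had 44 and 47, and chrUn_GL000216v2 had 40 and 37. chrUn_GL000220v1 had 46 and 36, and chr22_KI270733v1_random 42 and 34. These are the 2 sequences on which ribosomal RNA genes were placed, as described below. chrUn_GL000195v1 had 37 and 35, and chr17_GL000205v2_random 35 and 34.

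Of the 42 sequences with at least 10 peaks in both lists together, 21 had more peaks in the siRNA list, 19 had more in the control list and 2 had equal numbers. chrUn_GL000218v1 had 17 control and 28 siRNA peaks, chr16_KI270728v1_random 22 and 30, and chr1_KI270706v1_random 5 and 12. Smaller differences were seen on chr14_GL000194v1_random (25 and 29), chrUn_GL000219v1 (18 and 21) and chrUn_KI270742v1 (16 and 20). In the other direction, the differences were largest on chrUn_GL000220v1 (46 and 36) and chr22_KI270733v1_random (42 and 34). chrUn_KI270756v1 had 8 control and 3 siRNA peaks, chrUn_KI270750v1 had 13 and 9, and chrUn_GL000224v1 had 23 and 20. No sequence stood alone in a list with many peaks. The 5 sequences found in the control list only held 1 peak each, except chrUn_KI270745v1 with 3, and the 6 found in the siRNA list only held 1 peak each.

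**Figure D1:**
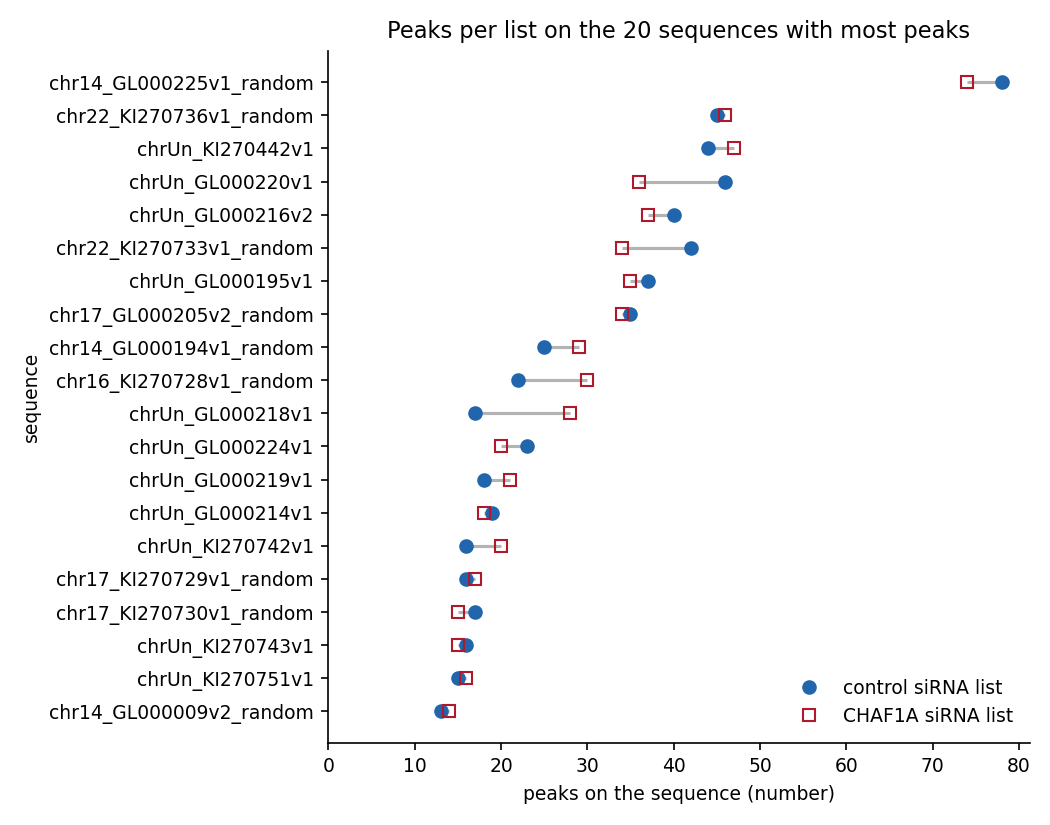
Number of peaks (horizontal axis) on each of the 20 unplaced or unlocalized sequences with the most peaks in both lists together (vertical axis), with filled circles for the control siRNA list and open squares for the CHAF1A siRNA list. The largest numbers are on chr14_GL000225v1_random (78 and 74), and the rDNA sequences chrUn_GL000220v1 (46 and 36) and chr22_KI270733v1_random (42 and 34) lie further left in the siRNA list.

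Peaks on these sequences were wider and more strongly called than those on the chromosomes of the same list. In the control list the median width was 416 bp (quartiles 257 and 682) against 327 bp (225 and 515) on the chromosomes. For siRNA peaks it was 458.5 bp (282 and 763) against 340 bp (235 and 532). Peaks of at least 1000 bp made up 12.6% of the control peaks (109) and 15.6% of the siRNA peaks (138), against 4.81% and 6.07% on the chromosomes. The authors' fold enrichment, the stack of reads at the summit over its local background, had a median of 3.97 (quartiles 3.06 and 5.40) in the control list and 3.72 on the chromosomes. The siRNA medians were 3.70 (2.95 and 4.94) and 3.19. The gap was wider in −log10 q, where the median was 19.4 against 9.82 in the control list and 17.99 against 8.50 in the siRNA list. Of the control peaks, 272 (31.3%) were in the top decile of their list by −log10 q and 31 (3.57%) in the lowest decile. The corresponding siRNA numbers were 323 (36.5%) and 30 (3.39%).

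The local background of many of these peaks was raised. The reads at each summit and the local background were recovered from the deposited fold and p, and both are given here as multiples of the list's genome-wide background, which was 6.34 reads for control and 8.49 for siRNA. The local background was more than 1.5 times the genome-wide one at 602 control peaks (69.4%) and 566 siRNA peaks (63.9%), against 51.1% and 46.9% on the chromosomes. Its highest value was at a peak of chrUn_KI270438v1 (positions 109098 to 110675), with 178 times the genome-wide background in the control list and 157 times in the siRNA list. Sequences differed in this respect. The median over the peaks of chr14_GL000225v1_random was 15.4 times (control) and 16.6 times (siRNA), and that of chrUn_GL000216v2 was 14.1 and 12.6 times. On chrUn_GL000220v1 it was 33.1 and 19.5 times, and on chr22_KI270733v1_random 34.8 and 15.9 times. In contrast, chr22_KI270736v1_random had 3.30 and 3.14 times and chr16_KI270728v1_random 1.41 and 1.45 times. The median fold of the 42 sequences with at least 10 peaks was lowest on chrUn_GL000220v1 (2.49 control, 2.51 siRNA) and highest on chrUn_KI270538v1 (7.63 and 7.38), a sequence whose background was at the genome-wide level.

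**Figure D2:**
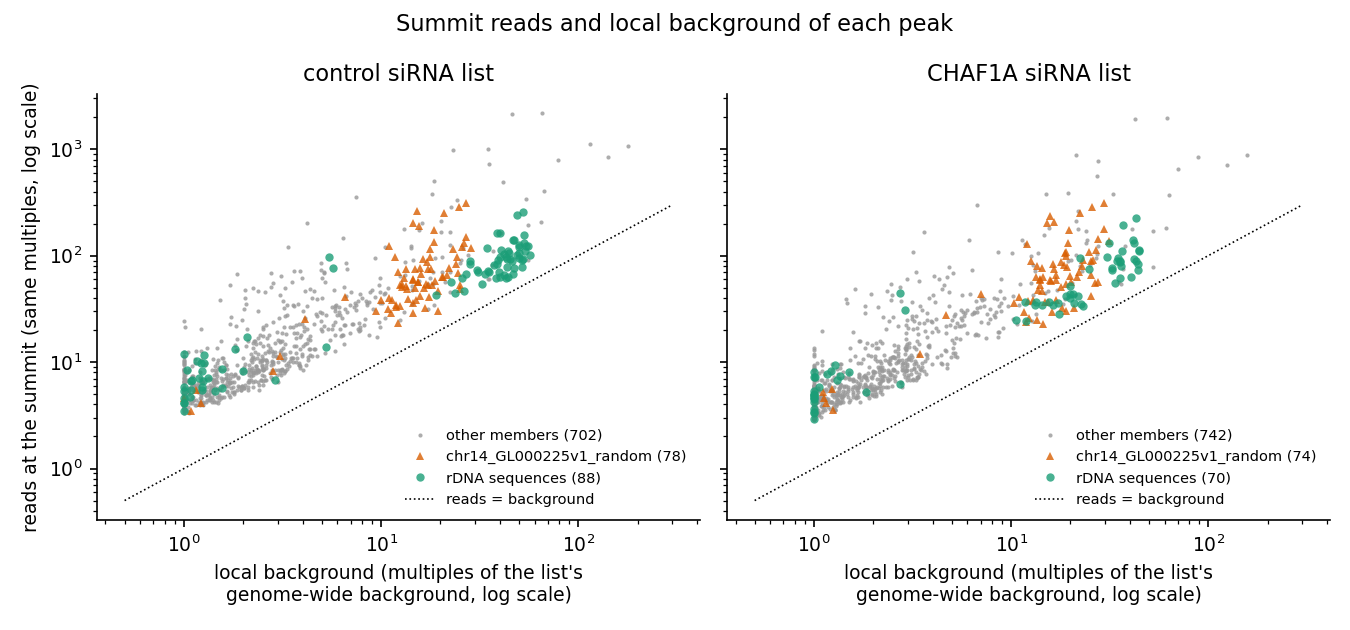
Each point is a peak, with its local background (horizontal, log scale) and the reads at its summit (vertical, log scale), both as multiples of the genome-wide background of its list; the dotted line marks reads equal to background. Peaks of the rDNA sequences form a low-background group and a group close to the dotted line, spanning 18.99 to 57.1 for control and 10.6 to 44.6 for siRNA, and most peaks of chr14_GL000225v1_random lie between 10 and 30.

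The strongest peaks were the same regions in both lists. The 10 peaks with the highest −log10 q in one list overlapped the 10 of the other, and the first and second of them had ranks 5 and 6 in both whole lists. The first was at 27481 to 28079 of chr17_KI270729v1_random, with a fold of 46.9, a −log10 q of 17113 and 13724 reads at the summit in the control list. After CHAF1A siRNA this peak ran from 27480 to 28079, with a fold of 45.2, a −log10 q of 20227 and 16428 reads. The second was on the same sequence, at 2611 to 4669 in the control list (fold 33.6, 13918 reads) and at 2946 to 4773 in the siRNA list (fold 32.2, 16832 reads). Another peak of chr17_KI270729v1_random, at 47177 to 47436, had a fold of 46.7 and 2245 reads in the control list and 43.9 and 2553 reads in the siRNA list. The strongest peak of an unplaced sequence was at 92092 to 93085 of chrUn_KI270442v1, with a fold of 42.5 and 6246 reads in the control list and a fold of 41.4 and 7561 reads in the siRNA list. On chrUn_KI270438v1, a peak at 103784 to 105365 had a fold of 9.94 and 5002 reads against 9.30 and 5571 reads. Its neighbour with the highest background, given above, had a fold of only 6.00 with 6780 reads, and 5.66 with 7573 reads.

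Of the 10 strongest peaks, 4 were on very short unplaced sequences. That of chrUn_KI270337v1 began at the first base and ended at 1104 in both lists, with 6377 control and 6511 siRNA reads at the summit and folds of 28.8 and 27.6. That of chrUn_KI270467v1 ran from 900 to 3875 in both lists (7138 and 7158 reads, folds of 9.83 and 9.52). That of chrUn_KI270466v1 ran from 5 to 1233 in both (4610 and 4717 reads, folds of 20.6 and 20.3). chrUn_KI270336v1 had 3210 and 3218 reads, with folds of 26.9 and 25.2. These 4 peaks had 1.00 to 1.02 times as many reads in the siRNA as in the control list, and the other 6 had 1.11 to 1.21 times as many. All were below the 1.34 times by which the genome-wide backgrounds differed. So were 72.2% of the chromosome peaks paired between the lists with at least 100 reads in both together.

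There were 30 sequences that had no peak ending beyond position 5000 in either list. They held 30 control and 37 siRNA peaks, of which 29 in each list were shared. Their median fold was 8.15 (quartiles 5.17 and 17.03) in the control list and 5.67 (3.80 and 11.4) in the siRNA list, above the medians of 3.97 and 3.70 over all peaks of unplaced and unlocalized sequences. The highest fold of an unplaced sequence was within these 30 sequences, on chrUn_KI270310v1. The peak ran from 340 to 1116 for control (fold 46.8, 1293 reads) and from 316 to 1116 for siRNA (fold 44.5, 1413 reads). In each list, 14 peaks on unplaced or unlocalized sequences began within the first 100 bases of their sequence, where a peak can be truncated. The widest peak of either list was on a longer sequence, chrUn_KI270744v1, with 4428 bp (107847 to 112274, fold 3.35) in the control list and 4353 bp (107959 to 112311, fold 3.21) in the siRNA list.

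Most of the peaks were found in both lists. A peak was called shared when at least 1 bp of it was overlapped by a peak of the other list. In the control list 702 of 868 peaks (80.9%, exact 95% interval 78.1 to 83.4%) were shared, against 62.1% of all control peaks. In the siRNA list 678 of 886 (76.5%, 73.6 to 79.3%) were shared, against 47.8% of all siRNA peaks. Part of that gap goes with strength, since strong peaks were shared more often everywhere. Chromosome peaks weighted to the same deciles of −log10 q would be shared at 75.6% in the control list and 71.0% in the siRNA list, which is below both intervals. This weighting left out width, given above, and spacing. Peaks on these sequences were a median of 3230 bp apart in the control list and 3316.5 bp in the siRNA list. On the chromosomes these distances were 11992 and 10054 bp. The part of width and spacing in the sharing was not tested. In the top decile the shares were close, with 96.0% against 98.0% on the chromosomes in the control list and 98.1% against 98.9% in the siRNA list. The gap was not steady below it. Control shares were 29.0% against 29.6% in decile 1, 61.1% against 43.2% in decile 3, 57.6% against 57.2% in decile 5, 88.0% against 73.2% in decile 7 and 90.7% against 89.9% in decile 9. For the siRNA list the shares were 51 of 68 peaks against 55.3% in decile 7 and 92.0% against 91.7% in decile 9. Sharing was 78.4% (control) and 78.5% (siRNA) on unplaced sequences, and 83.4% and 74.7% on unlocalized ones. Where peaks were shared, their summits were close, within 50 bp in 430 of 667 pairs of best-overlapping peaks (64.5%, median distance 16 bp), against 50.6% and 49 bp on the chromosomes.

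**Figure D3:**
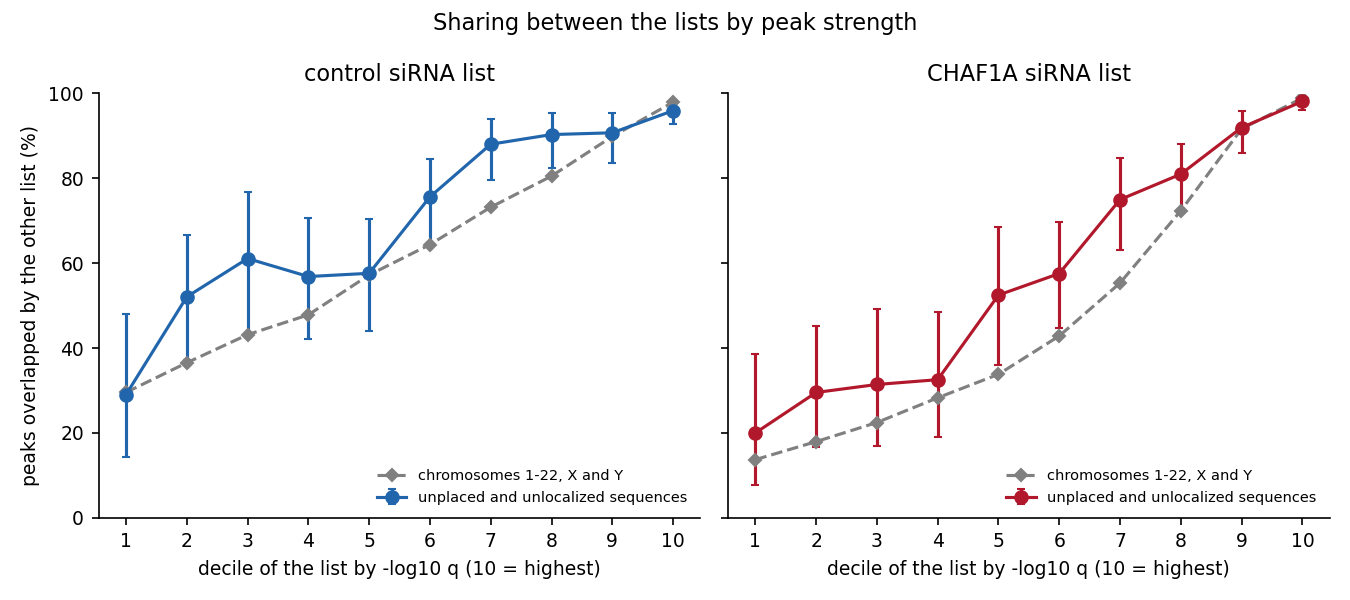
Percent of peaks overlapped by the other list (vertical) in each decile of the list by −log10 q (horizontal, 10 is the highest), for the control list (left) and the siRNA list (right); solid lines show peaks on unplaced and unlocalized sequences with exact 95% intervals, and dashed lines those on chromosomes 1 to 22, X and Y. In the control list the lines lie close in deciles 1, 5, 9 and 10 and are furthest apart in decile 3 (61.1% against 43.2%), and in the siRNA list they lie close in deciles 9 and 10 and are furthest apart in decile 7.

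Sharing varied between sequences. All 11 control peaks of chrUn_KI270754v1 were shared, and 73 of the 78 of chr14_GL000225v1_random. Of the 8 control peaks of chrUn_KI270756v1 only 3 were shared, and of the 12 siRNA peaks of chr1_KI270706v1_random only 4. There were 166 control and 208 siRNA peaks found in 1 list only. The strongest such control peak was at 117575 to 118035 of chrUn_GL000220v1, inside the 28S ribosomal RNA gene RNA28SN5, with a fold of 2.96, a −log10 q of 162 and 888 reads. It was followed by 65276 to 65446 of chrUn_KI270756v1 (fold 14.2, 169 reads), 86459 to 86648 of chr14_GL000225v1_random (fold 4.03, 373 reads), 125056 to 125288 of chr22_KI270733v1_random (fold 2.49, 664 reads) and 10242 to 10429 of chrUn_GL000216v2 (fold 3.44, 388 reads). The strongest peak found in the siRNA list only was at 96006 to 96238 of chrUn_KI270442v1, with a fold of 4.55, a −log10 q of 240 and 752 reads. Next came 14362 to 14735 and 122832 to 123009 of chr14_GL000225v1_random (401 and 430 reads, folds of 3.44 and 2.82), 57543 to 58501 of chrUn_KI270438v1 (fold 8.30, 114 reads) and 4694 to 5294 of chr4_GL000008v2_random (fold 2.81, 303 reads). Of these 10 peaks, 2 were over ribosomal RNA genes and both of those were in the control list.

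The ribosomal RNA genes are transcribed as a 45S precursor by RNA polymerase I and processed into the 18S, 5.8S and 28S RNAs. Their many near-identical copies are arranged in tandem arrays on the short arms of the acrocentric chromosomes. Copies within the assembled chromosomes, which could take some of the same reads, were not examined. In the RefSeq gene table (GRCh38.p14), RNA45SN5 lies at 105424 to 118780 of a sequence with no chromosome and RNA45SN4 at 122273 to 135645 of a piece assigned to chromosome 22. The table does not name these sequences. They were read as chrUn_GL000220v1 and chr22_KI270733v1_random from general knowledge of the assembly, and no gene was assigned to peaks on other sequences. On the assembled chromosome 22, the first peak of either list begins at 10632297. Whether reads could be placed before that position was not examined.

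The 2 rDNA sequences held 88 control and 70 siRNA peaks, so the siRNA list contributed 44.3% of them (exact 95% interval 36.4 to 52.4%). For the other unplaced and unlocalized sequences it contributed 816 of 1596 (51.1%, 48.6 to 53.6%), and for the chromosomes 56.1%. Most of the extra siRNA peaks on the chromosomes were weak. At a −log10 q of at least 10 the chromosomes held 37115 control and 38805 siRNA peaks, and the rDNA sequences 77 and 61. The covered length hardly differed, with 26254 control and 26331 siRNA bp on chrUn_GL000220v1 and 24145 and 22860 bp on chr22_KI270733v1_random. The lower peak number thus went with wider peaks, whose median width was 455 bp (control) and 523 bp (siRNA). Of the control peaks 73.9% were shared, against 83.7% for chromosome peaks in the same deciles of strength. Of the siRNA peaks 88.6% were shared, against 83.4%.

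Within these sequences the difference in number was largest over the 45S genes. RNA45SN5 and RNA45SN4 together held 14 control and 6 siRNA summits, and 7 of the 14 and all 6 belonged to shared peaks. On chr22_KI270733v1_random there were 9 and 3, and on chrUn_GL000220v1 5 and 3. On the latter, 1 siRNA peak at 104194 to 106874 spanned the gene start, where the control list had separate peaks at 104273 to 104897, 105174 to 105896 and 106254 to 106921. In the region beyond the 45S gene, the spacer that separates the copies and the start of the next copy, the numbers were 37 and 34. The 4000 bp before the gene, which include its promoter, held 5 and 4. Further upstream there were 32 and 26.

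Folds over the 45S genes were low, while the reads were many. The 14 control peaks had folds of 1.44 to 2.96 with 346 to 888 reads at the summit, and the 6 siRNA peaks had folds of 1.56 to 2.60 with 300 to 442 reads. The local background there was 32.4 to 55.5 times the genome-wide one in the control list and 19.01 to 22.6 times in the siRNA list. These ranges did not overlap, nor did those in the 4000 bp before the gene (18.99 to 30.5 and 11.7 to 17.3 times). Beyond the gene they did (22.7 to 57.1 and 10.6 to 44.6 times). Without scaling, the background over the 45S genes was 205 to 352 reads in the control list and 161 to 192 in the siRNA list. In the 4000 bp before the gene it was 120 to 194 and 99.3 to 147 reads, so there the unscaled ranges overlapped. Neighbouring peaks on 2 near-identical sequences are not separate measurements of the background. Upstream, beyond the 4000 bp, the median background was 1.23 times (chrUn_GL000220v1) and 1.24 times (chr22_KI270733v1_random) in the control list and 1.01 and 1.00 times in the siRNA list, with median folds of 4.09 and 5.43 against 4.74 and 4.65. Beyond the gene it was 48.9 and 40.5 times against 36.5 and 32.6 times.

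**Figure D4:**
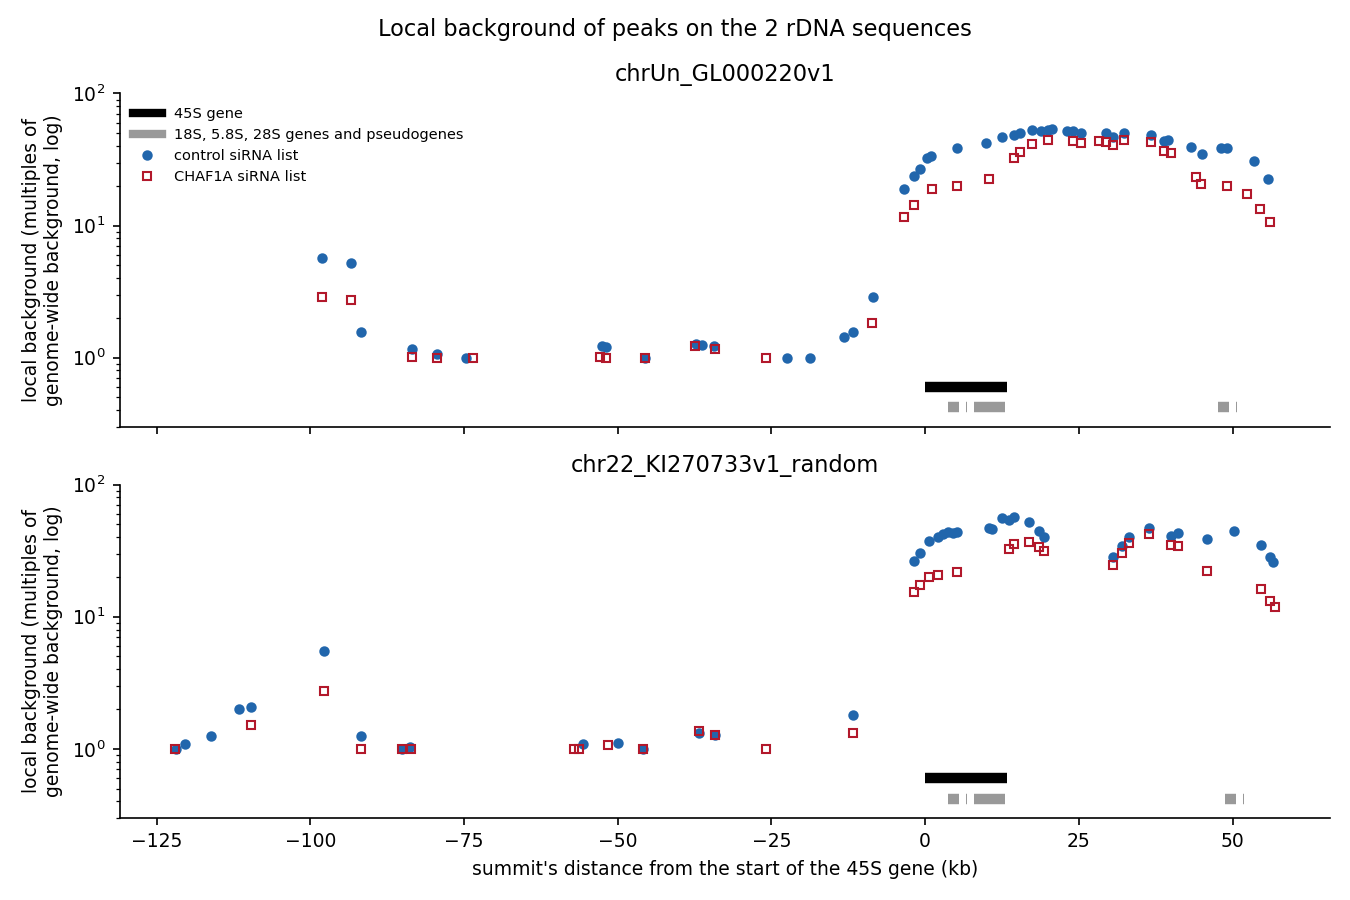
Local background of each peak, as a multiple of the list's genome-wide background (vertical, log scale), by the summit's distance from the start of the 45S gene in kb (horizontal) on the 2 rDNA sequences; bars at the bottom mark the 45S genes (black) and the 18S, 5.8S and 28S genes and pseudogenes (grey). On both sequences the background is at most 5.67 far upstream and above 10 from just before the gene onward. Over the 45S gene all control values (32.4 to 55.5) are above all siRNA values (19.01 to 22.6). The same holds in the 4000 bp before the gene, although the unscaled backgrounds of the lists overlap there. Beyond the gene the values of the lists overlap.

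Some summits lay at the same place relative to the 45S start on both rDNA sequences. Within a tolerance of 20 bp, 4 control summits of chrUn_GL000220v1 had a counterpart on chr22_KI270733v1_random. Counting from the start of the 45S gene, with negative positions before it, they lay at -1863 and -1844, at -754 and -755, at 5184 and 5191 in the 18S gene, and at 12479 and 12492 in the 28S gene. Their reads were alike, at 281 and 297, 426 and 465, 583 and 594, and 888 and 780. Reads of near-identical copies can fit either sequence, so these are not independent measurements of separate loci. In the siRNA list 2 summits lined up in this way. One lay at -1844 on both (293 and 314 reads), and one was in the 18S gene at 5187 and 5191 (373 and 355 reads). At -754, chr22_KI270733v1_random also had an siRNA summit, with 303 reads. On chrUn_GL000220v1 that position lay inside the siRNA peak at 104194 to 106874, whose summit was at 1105. The 28S summit, at 888 and 780 reads the highest of these in the control list, had no overlapping siRNA peak on either sequence. The strongest peaks of the rDNA sequences were not in the genes but beyond them, at 138654 to 139738 of chr22_KI270733v1_random (1617 control reads, 1637 siRNA reads) and 141757 to 142871 of chrUn_GL000220v1 (1520 and 1908 reads).

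Reads at the summits of paired peaks were then set side by side. Pairs were peaks that were each other's largest overlap and had at least 100 reads in both lists together. The siRNA reads were divided by the control reads, and this ratio by 1.34, the ratio of the 2 genome-wide backgrounds. A value of 1 thus means that reads differ as the backgrounds do. It compares 2 lists, not replicated conditions. The 510 pairs on unplaced and unlocalized sequences had a median of 0.904 (quartiles 0.784 and 1.02), and 26586 chromosome pairs had 0.853 (0.693 and 1.02). Against the background, reads were thus lower in the siRNA list for the median pair. Against the median of the chromosome pairs, which is another possible scale, the same pairs stood at 1.06.

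The sequences spread to both sides of these medians. For 19 sequences with at least 8 pairs, 2 medians lay at or above 1 and 6 lay below that of the chromosome pairs. The lowest were the rDNA sequences, chr22_KI270733v1_random with 0.656 (26 pairs) and chrUn_GL000220v1 with 0.766 (27 pairs). Of their 53 pairs together, 51 (96.2%) were below 1, against 71.0% of all 510 pairs and 72.2% of the chromosome pairs. Their median was 0.738 (quartiles 0.523 and 0.873), which stood at 0.865 of the chromosome median. Before scaling, 27 of the 53 pairs had fewer reads in the siRNA list, against 8756 of the 26586 chromosome pairs. The unscaled medians were 0.988 and 1.14. Pairs on these 2 near-identical sequences are not separate measurements. Over the 45S genes the 6 pairs had a median of 0.553, and the local background at the same summits had a ratio of 0.529. Beyond the gene the 31 pairs had 0.823, with 0.783 for the background. The 4 pairs in the 4000 bp before the gene had 0.784, with 0.596 for the background, and the 12 pairs further upstream had 0.689, with 0.846. Reads and background thus had similar ratios in the first 2 of these parts and not in the others. Whether a control library set the background is not stated, so the 2 ratios may not be separate measurements. Next lowest were chr17_GL000205v2_random with 0.776 (22 pairs) and chrUn_GL000195v1 with 0.785 (23 pairs). Their strongest peaks had lower read numbers in the siRNA list without any scaling, with 2172 control and 1196 siRNA reads at 86561 to 90186 of the first and 2093 and 1185 reads at 30211 to 33153 of the second. Most of their pairs did not. Before scaling, 9 of the 22 and 9 of the 23 pairs had fewer siRNA reads, and the median ratios were 1.04 and 1.05.

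chr14_GL000225v1_random was at the other end, with a median of 1.03 (quartiles 0.982 and 1.09) over 63 pairs. Of these, 41 were at or above 1, against 7401 of the 26586 chromosome pairs. Its median was 1.20 times that of the chromosome pairs. Chromosome pairs whose control background was over 10 times the genome-wide one had a median of 0.900 (522 pairs). Such pairs on unplaced and unlocalized sequences other than rDNA, this one included, had 0.990 (118 pairs). Before scaling, all 63 pairs had more reads in the siRNA list, while 8756 of the 26586 chromosome pairs had fewer. The strongest control peak of chr14_GL000225v1_random, at 25172 to 26078, had 1656 control and 2015 siRNA reads. That at 67247 to 68302 had 1982 and 2628. chr16_KI270728v1_random had the highest median, also 1.03, over 9 pairs. The 12 pairs of chr17_KI270729v1_random had 0.890, with quartiles of only 0.856 and 0.902. The 10 strongest peaks of all these sequences ranged from 0.749 to 0.904. The local background of the rDNA pairs had a ratio of 0.722, that of the pairs of chr14_GL000225v1_random 1.07, and its part in these ratios was not tested.

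**Figure D5:**
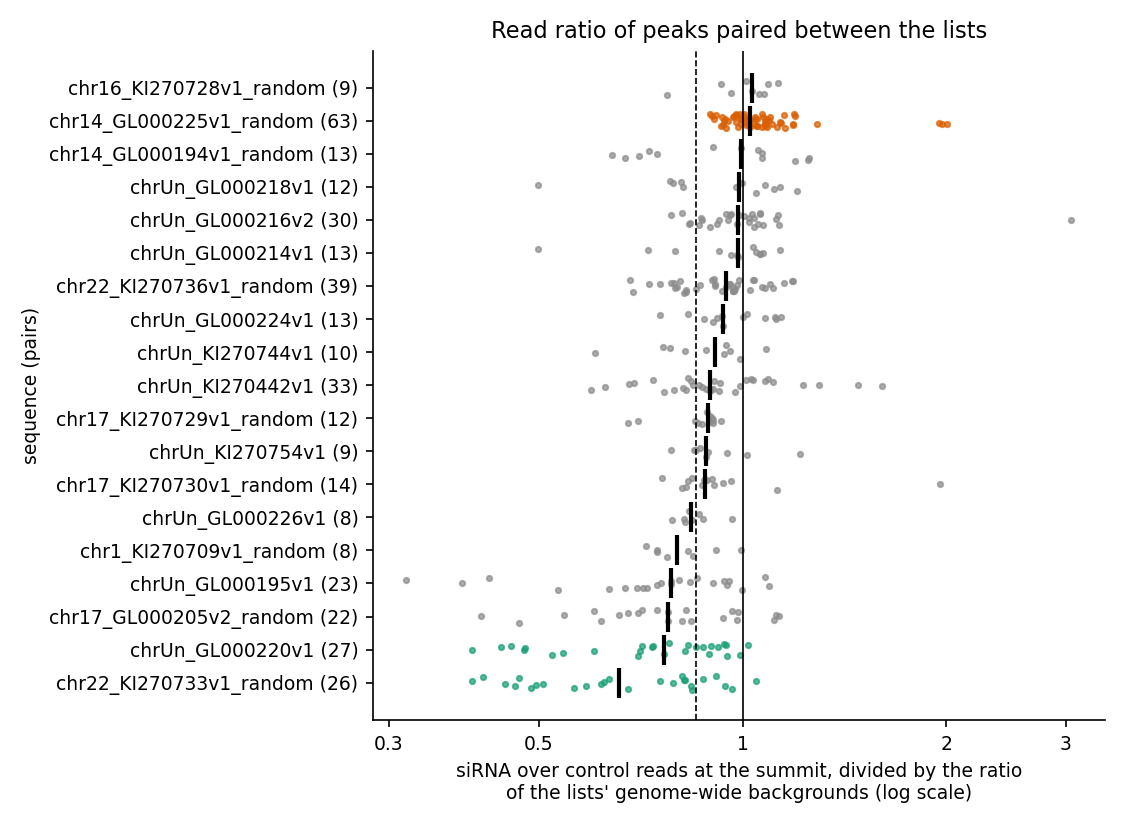
Reads at the summit in the siRNA list over those in the control list, divided by the ratio of the genome-wide backgrounds (horizontal, log scale), for pairs of peaks on the 19 sequences with at least 8 pairs (vertical, number of pairs in brackets); black ticks are medians, the solid line is 1 and the dashed line the median of chromosome pairs (0.853). The rDNA sequences (green) have the lowest medians, 0.656 and 0.766. chr14_GL000225v1_random (orange) has 41 of 63 pairs at or above 1, against 7401 of 26586 chromosome pairs.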

How the data were processed

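CHAF1A CUT&Tag in RBE cells was analysed from 2 deposited peak lists, 1 per group of 2 samples. The list named NC was read as the control group, although the names match the sample titles only in part. The sources used here do not say whether samples were pooled or a control library set the background. The submitters' processing notes name MACS2 2.1.2, Bowtie2 2.2.5, deepTools 3.4.3 and fastp 0.20.1, and the build hg38. In the lists the authors deposited, fold enrichment is a linear ratio, p and q are −log10 values, and the score column was not used. The lowest −log10 p was 5.00 in both lists. Positions are printed counting from 1.

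Members and gene lists were chosen with earlier results of these data known. The rule for named regions took every sequence with at least 10 peaks in both lists together, the 10 strongest peaks per list, the 5 strongest found in 1 list only, the widest peak, the highest fold of each kind of sequence, and rules for alternate and mitochondrial sequences that had no peak to apply to. The other sequences, peaks and pair ratios named were chosen after their values were seen. Reads and background at each summit were solved from fold = (reads + 1)/(background + 1) and the Poisson tail p. All 801 control and 811 siRNA peaks with −log10 p under 290 on the sequences studied gave whole reads within 0.02. The most frequent background was taken as genome-wide. Overlaps used at least 1 bp, and shares have exact Clopper-Pearson 95% intervals. The solving, overlap and thinning steps were checked on simulated data. Depth beyond these backgrounds is unknown. Python 3.11.15, numpy 2.4.6, pandas 2.3.3 and scipy 1.17.1 were used. Gene positions came from an NCBI RefSeq table of GRCh38.p14.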

Additional observations from a re-analysis of the deposited data

How the results depend on the processing

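Peak numbers per list and kind stayed within 1.5 times under every alternative run. The share of each list on unplaced and unlocalized sequences moved to 1.22% (control) and 0.99% (siRNA) at a −log10 q of at least 5, and to 1.68% and 1.59% at 10. In the siRNA list it was 1.05% with equal numbers of peaks per list and 0.965% after thinning to the control background. The percent shared moved to 84.6% and 82.8% at a −log10 q of at least 10, to 81.3% in the siRNA list with equal numbers, and to 64.7% and 63.4% (chromosomes 44.0% and 34.4%) with a reciprocal overlap of at least 50%. The median fold moved to 4.63 and 4.31 at a −log10 q of at least 10, and to 3.89 in the siRNA list with equal numbers. The rDNA sequences held 77 control and 61 siRNA peaks at a −log10 q of at least 10, where the chromosomes held 37115 and 38805. With equal numbers, which meant 77181 peaks in each list, the rDNA sequences held 88 and 67. The next alternatives, which leave out sequences or change which pairs are used, were chosen after seeing the data. Without chr14_GL000225v1_random the shares of the lists were 1.02% and 0.825%, and without the 2 rDNA sequences 1.01% and 0.829%. Other minimum reads for pairs, or summits within 50 bp, gave rDNA medians of 0.735 to 0.784 (0.857 to 0.941 of the chromosome pairs). For chr14_GL000225v1_random they gave 1.02 to 1.03 (1.14 to 1.27 of the chromosome pairs). All pairs on unplaced and unlocalized sequences had 0.893 to 0.905 (1.01 to 1.11 of the chromosome pairs). The chromosome pairs ranged from 0.805 to 0.894. Leaving out mitochondrial or alternate sequences, or repeated intervals, changed nothing because none were present. No paired analysis was possible because each list does not keep the 2 samples of its group apart, and for the same reason no replicate could be left out.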
